A study of Mus musculus with 6 samples.

Results

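The 3 largest T cell clones of the control B16-OVA tumor were compared with each other in their receptor genes and in their transcripts. The B16 melanoma line used here expresses OVA, the model antigen ovalbumin. A clone here was a set of cells in which the TRA and the TRB contig with most UMIs (unique molecular identifiers, each counting 1 captured RNA molecule) had the same CDR3 nucleotides. The clones were chosen by their number of cells, counted among barcodes that were also in the expression matrix and in which *Cd2*, *Cd8a* and *Cd8b1* were all detected, so their size and these 3 genes describe the choice and are not results. They held 2633 of the 4293 control tumor cells with both chains, and the 4 expression libraries of the series held 47860 barcodes in all.

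All cells came from CD8-Cre Rosa26Tomato mice with a B16-OVA tumor, taken after 12 days, in which Cre recombinase is driven by CD8 regulatory sequence and switches on the red Tomato reporter. They are the study's controls: the labels list no floxed IFNγ receptor allele for them, the series design text calls them C57Bl6 WT, and the engraftment is the one treatment named. Cells were sorted on CD45, CD3, CD8 and Tomato. The study's methods give an age range and both sexes for its mice as a whole, not for these animals.

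The tumors of 3 control mice were joined into 1 expression library and 1 TCR library, with 5′ chemistry, and nothing in the labels ties a cell to a mouse. A difference between clones and a difference between the mice that carried them therefore cannot be told apart, and no p-value is given: cells of 1 library are not replicates. The 95% intervals below are exact, cover counting error only, and say nothing about the spread between animals. Of the 2633 member barcodes, 57, 30 and 46 also occurred in the expression libraries of the control lymph node, the receptor-deficient tumor and the receptor-deficient lymph node. Over all 11369 control tumor barcodes these numbers were 249, 169 and 175.

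A T cell receptor is a pair of an α and a β chain. Each chain is joined in the thymus from V and J segments, and for β also a D segment, with bases trimmed and added at the joints, and the joint encodes the CDR3 loop that contacts the antigen peptide. Descendants of 1 T cell inherit its joints, so the CDR3 nucleotides serve as a natural label of a clone. A chromosome whose joining failed can stay in the cell and be transcribed at a low level. CD8 T cells that meet their antigen in a tumor divide, make granzymes and perforin, and with continued stimulation carry inhibitory receptors such as PD-1 (*Pdcd1*) and LAG-3 (*Lag3*).

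The CDR3 sequences that define the clones are printed from the contigs, 5′ to 3′. Capitals mark the bases between the stretch shared with most other CDR3s of the same V gene, read from the 5′ end, and the stretch shared with most other CDR3s of the same J gene, read from the 3′ end, over both tumor TCR tables.
Clone 1 TRA: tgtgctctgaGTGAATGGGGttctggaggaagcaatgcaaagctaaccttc
Clone 1 TRB: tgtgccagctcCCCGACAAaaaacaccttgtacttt
Clone 2 TRA: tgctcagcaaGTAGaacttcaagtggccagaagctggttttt
Clone 2 TRB: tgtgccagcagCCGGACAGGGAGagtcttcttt
Clone 3 TRA: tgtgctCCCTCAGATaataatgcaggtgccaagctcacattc
Clone 3 TRB: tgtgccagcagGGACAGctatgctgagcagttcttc
The α CDR3s were 51, 42 and 42 bases long in clones 1, 2 and 3, and the β CDR3s 36, 33 and 36 bases long. The marked middle was 10, 4 and 9 bases long in the α chains and 8, 12 and 6 bases long in the β chains. For clone 2 the α V side rests on only 2 other CDR3s with that V gene. Over their whole length, the α CDR3s differed from each other by 20 to 25 single-base edits and the β CDR3s by 12 to 17. The marked middle of the clone 3 β chain also occurs within that of clone 2.

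Clone 1 held 1104 cells, which was 25.7% of the cells with both chains (95% Clopper-Pearson interval 24.4 to 27.1). Clone 2 held 1012 cells or 23.6% (22.3 to 24.9), and clone 3 held 517 cells or 12.0% (11.1 to 13.1). The next clone, just outside the choice, held 172 cells or 4.01% (3.44 to 4.64). The sizes went down to 29 cells for clone 20, and 183 of the 260 clones were of 1 cell.

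**Figure D1:**
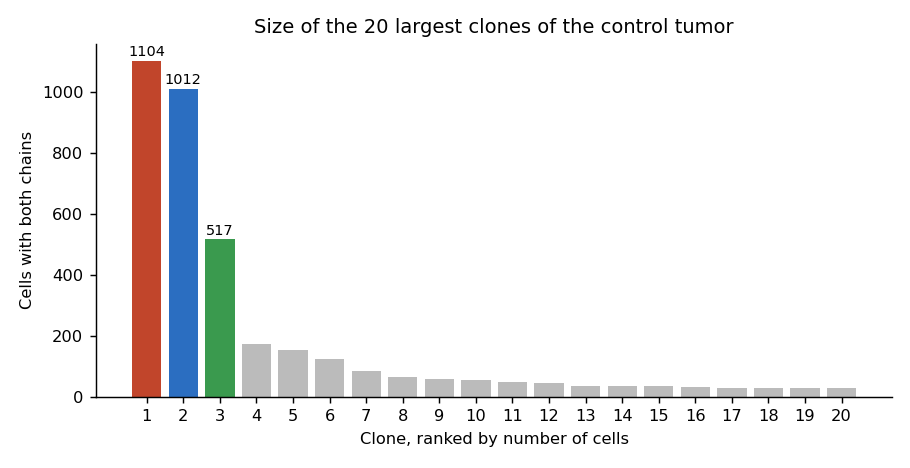
Number of cells (y axis) in each of the 20 largest clones of the control tumor, ranked by size (x axis); bars in color are clones 1, 2 and 3 with 1104, 1012 and 517 cells, and grey bars are the clones ranked 4 to 20. Clone 4, with 172 cells, is the first grey bar, well below clone 3.

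The V and J calls were uniform within each clone. Clone 1 used TRAV12-3 with TRAJ42 and TRBV12-1 with TRBJ2-4 in all 1104 cells. Clone 2 used TRAV5-1 with TRAJ16 and TRBV14 with TRBD1 and TRBJ1-1 in all 1012 cells, and clone 3 used TRAV13D-2 with TRAJ39 and TRBV15 with TRBJ2-1 in all 517 cells. The β constant region was TRBC2 in clones 1 and 3 and TRBC1 in clone 2, where 1010 of 1012 contigs had a call. No V or J gene was shared between the 3 clones on either chain, and the next clone down that shared a V gene with any of them was clone 6, which used TRBV12-1 with TRBJ1-2.

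Every member cell had exactly 1 TRA and 1 TRB contig. A second TRA contig was present in 109 and a second TRB contig in 92 of the other 1660 cells with both chains (6.57% and 5.54%). The contig table held only productive chains, so a non-productive second chain would not appear in it. The median α contig had 8, 8 and 7 UMIs in clones 1, 2 and 3. The median β contig had 9, 27 and 46 UMIs, with quartiles of 6 to 13, 19 to 37 and 32 to 62, so the range between the quartiles of clone 1 lay below those of clones 2 and 3, which overlapped.

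The order of the β chains was the same in the expression library, which is another readout of the same cells. *Trbv12-1* in clone 1 was at 1176 CPM (UMIs of the gene per 1000000 UMIs of the clone, 95% Poisson interval 1152 to 1200), *Trbv14* in clone 2 at 2327 CPM (2295 to 2360) and *Trbv15* in clone 3 at 4915 CPM (4849 to 4982). Each was found in 99.9% to 100% of the cells of its own clone. Of the β segments of the other clones, *Trbv12-1* had a UMI in 1.78% of clone 2 cells and 4.06% of clone 3 cells. *Trbv14* had a UMI in 0.996% of clone 1 cells and 1.74% of clone 3 cells. The source of these UMIs was not tested, and *Trbv15* in clone 1, given below, was far higher. On the α side *Trav12-3* was at 860.3 CPM in clone 1 and *Trav5-1* at 931.5 CPM in clone 2, each in over 99% of the cells. *Trav13d-2*, the α V gene of clone 3, had 0 UMIs in all 3 clones. *Trav13d-1*, another gene of the same family, had 37.5 CPM in clone 3. The authors' counting can lose reads that fit several copies of a duplicated gene, and whether it did so here was not tested.

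Some V genes that no contig of the clone contained were also found in its cells. In clone 1, *Trbv15* was at 409.7 CPM and in 88.6% of the cells against 2.17% in clone 2, although no clone 1 cell had a TRBV15 contig, and *Trav12-2* was at 173.0 CPM and in 65.7% of the cells. In clone 3, *Trav9-4* was at 127.0 CPM (60.9% of cells), *Trav3-3* at 110.2 CPM (53.6%), *Trbv24* at 100.6 CPM (49.1%) and the γ chain segment *Trgv2* at 167.0 CPM (42.9%). The first 3 of these were at or under 2.13 CPM in clones 1 and 2, whereas *Trgv2* was at 50.3 CPM in clone 1 and 40.3 CPM in clone 2. In clone 2, *Trbv13-2* was at 103.0 CPM (51.7% of cells) against 32.2 and 36.3 CPM in clones 1 and 3, and *Trbv12-2* at 35.1 CPM (23.3%) against 9.90 and 11.4 CPM. A J segment, *Traj13*, was at 28.5 CPM in clone 2 against 0 in clone 1 and 0.233 in clone 3. Some of these segments were higher in a smaller clone whose contigs did not use them. *Trbv13-2* was at 109.9 CPM and *Trav3-3* at 116.0 CPM in clone 11, and *Trbv24* at 116.2 CPM in clone 4. *Trgv2* was at 360.9 CPM in clone 5 and *Trbv12-2* at 214.1 CPM in clone 12. In contrast, *Trav9-4* reached 20.7 CPM in clone 18, and *Traj13* was at 0 in all of clones 4 to 20. *Trav12-2* and *Trav12-3* belong to 1 family of similar genes, and reads of the one can be counted for the other, which was not tested. Clone 5 had *Trav12-2* at 311.2 CPM with *Trav12-3* at 0.

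**Figure D2:**
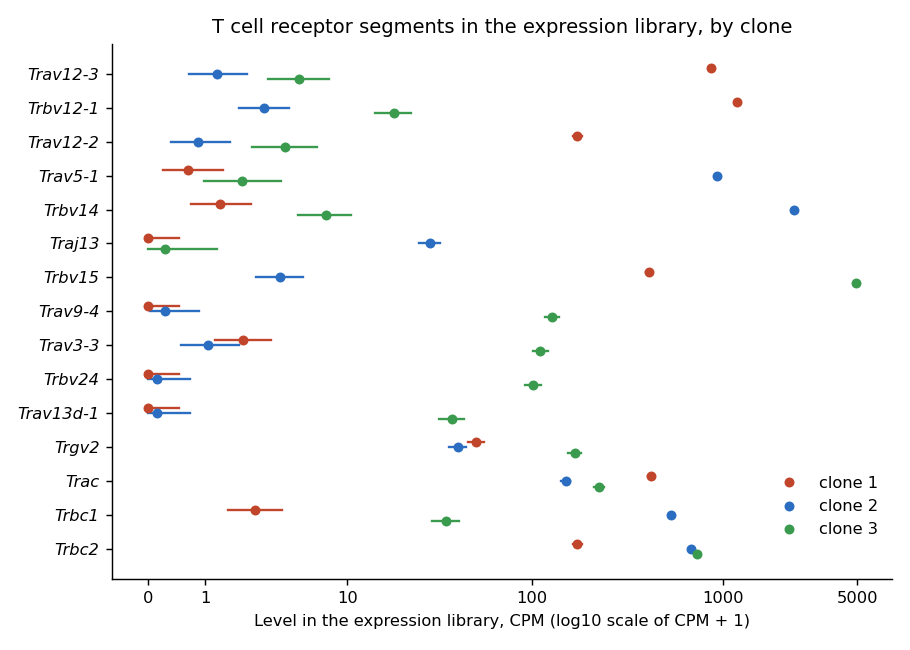
Level of T cell receptor segments in the expression library (x axis, CPM on a log10 scale after adding 1) for clone 1 (red), clone 2 (blue) and clone 3 (green); points are pooled CPM of the clone and lines 95% Poisson intervals. Clone 1 carried *Trbv15* (409.7 CPM) beside its own *Trbv12-1* (1176 CPM), and clone 3 carried *Trav9-4*, *Trav3-3* and *Trbv24* at 100.6 to 127.0 CPM.

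The constant regions of the expression library differed as well. *Trbc1* was at 2.63, 536.3 and 34.7 CPM in clones 1, 2 and 3, and *Trbc2* at 172.7, 680.0 and 725.7 CPM. Clone 2, whose β contigs carried TRBC1, therefore had both constant genes, and clone 3 had a *Trbc1* UMI in 21.3% of its cells against 0.996% in clone 1. The coding parts of *Trbc1* and *Trbc2* are nearly identical, so reads can be split between them, which was not tested. Among the clones ranked 4 to 20 whose β contigs carried TRBC2, *Trbc1* ran from 0, as in clone 8, to 323.0 CPM in clone 17. *Trac* was highest in clone 1 (419.2 CPM) against 149.7 in clone 2 and 224.8 in clone 3.

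Few barcodes held a chain of the 3 clones together with a partner chain other than that of the clone. The α CDR3 of clone 1 was in 1214 barcodes of the TCR table, of which 1190 had its β partner and 23 had no β contig. For clones 2 and 3 no barcode paired the α chain with another β chain. The β CDR3s were more often found alone, in 108 of 1365 barcodes for clone 1 (7.91%), 146 of 1279 for clone 2 (11.4%) and 192 of 800 for clone 3 (24.0%). The β chain of clone 1 was also the lesser of 2 TRB contigs in 62 barcodes, with a median of 2 UMIs against 12 for the leading contig, and in all 62 the leading contig also used TRBV12-1. As the leading TRB contig with another α chain, the β CDR3s of clones 1, 2 and 3 were in 5, 4 and 7 barcodes. Neither the nucleotides nor the amino acids of any of the 6 chains were found in the tumor of mice whose CD8 T cells lack the receptor.

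The clones were similar in depth and in T cell identity. They held 7978627, 8521642 and 4292535 UMIs, with a median depth per cell of 6341, 7082 and 7152 UMIs, and medians of 2218, 2407 and 2351 detected genes and of 0.594%, 0.619% and 0.637% mitochondrial UMIs. *Cd3e* was at 1873, 1693 and 1720 CPM. Of the marker lists of other cells, B cell, CD4 or regulatory T cell, γδ T cell, melanoma and erythroid or stromal markers each summed to at most 13.5 CPM in every clone. The list of macrophage and dendritic cell markers summed to 260, 359 and 292 CPM, of which *Cst3*, which T cells also make, gave 245, 252 and 252 CPM. Of its 14 genes, 1, 1 and 2 had 0 UMIs in clones 1, 2 and 3, among them *Adgre1* in each clone, and the rest had at least 1 UMI.

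For each pair, the genes compared had at least 50 CPM in either clone and 50 UMIs over both, without the receptor segments, and a gene was past the threshold at an absolute log2 ratio of 1 or more after adding 1 CPM. Between clones 1 and 2, 17 of 3047 genes were higher in clone 1 (0.558%) and 15 were lower (0.492%). Between clones 1 and 3, 8 of 3018 were higher in clone 1 (0.265%) and 14 lower (0.464%), and between clones 2 and 3, 6 of 3016 were higher in clone 2 (0.199%) and 15 lower (0.497%). These shares are the background for every gene list below. An absolute log2 ratio under 0.5 was found for 94.7%, 96.4% and 98.0% of the genes in the 3 pairs, so the clones resembled each other over most genes and 46 genes in all were past the threshold.

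**Figure D3:**
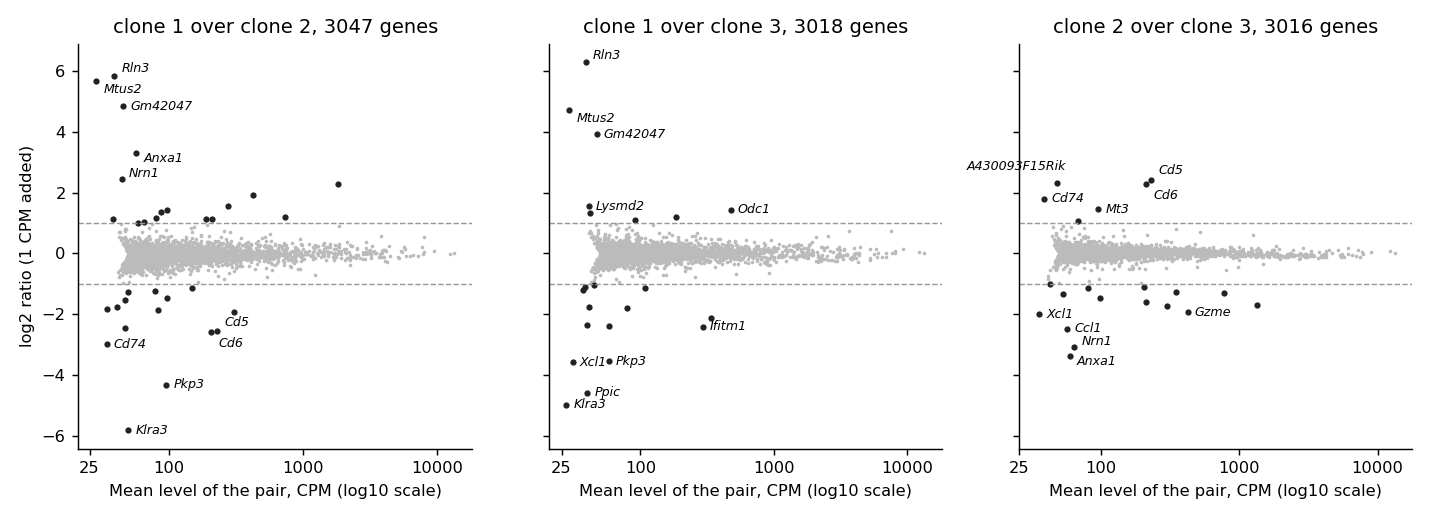
log2 ratio of the level of each compared gene (y axis, 1 CPM added) against the mean CPM of the pair (x axis, log10 scale) for clone 1 over 2 (3047 genes), clone 1 over 3 (3018) and clone 2 over 3 (3016); black points are past the dashed lines at 1 and -1, and the 5 highest and 5 lowest genes are named. *Rln3*, *Mtus2* and *Gm42047* stand at the top of both panels with clone 1, and *Klra3* at the bottom.

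Clone 1 was set apart by 3 transcripts that clones 2 and 3 nearly lacked. *Rln3*, which encodes the peptide hormone relaxin-3, was at 76.8 CPM in clone 1 (613 UMIs, in 32.4% of cells), at 0.352 CPM in clone 2 (3 UMIs) and at 0 in clone 3. This was 218 times the level in clone 2 by the plain ratio (95% interval 74.3 to 1061, resting on 3 UMIs) and at least 110-fold above clone 3, taking 3 UMIs as the floor for a count of 0. *Mtus2*, a microtubule-associated protein gene, was at 56.1, 0.117 and 1.16 CPM, with 448 UMIs in clone 1, 1 in clone 2 and 5 in clone 3, and *Gm42047*, a gene without an entry in the annotation used, was at 88.2, 2.11 and 4.89 CPM. The 10 cells with most *Rln3* held 11.9% of the clone 1 UMIs, so the transcript was spread over many cells of the clone.

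Among the 17 clones ranked 4 to 20, each of 29 to 172 cells, 14 had no *Rln3* UMI, while clone 9 was at 136.9 CPM and clone 10 at 80.9 CPM. *Mtus2* was at 0 in 15 of the 17 and reached 23.4 CPM in clone 9. *Gm42047* was less restricted, with 0 in 7 clones and 53.9 to 65.2 CPM in clones 4, 5, 6 and 13. *Rln3* lies on chromosome 8 (chr8:84043067-84044979, GRCm38.p6) and *Mtus2* on chromosome 5 (chr5:147957275-148316065).

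Clone 1 was also set apart by transcripts it lacked. *Pkp3*, which encodes the desmosome protein plakophilin 3, was at 8.27 CPM (4.44% of cells) in clone 1 against 184 CPM (65.0%) in clone 2 and 107.2 CPM (52.8%) in clone 3. This was 22.2-fold below clone 2 (17.4 to 28.9) and 13.0-fold below clone 3 (9.99 to 17.0). All 17 smaller clones were between 35.7 and 299.6 CPM, so clone 1 was the lowest of the 20. *Klra3*, an inhibitory receptor of the Ly49 family that binds MHC class I, had 6 UMIs in clone 1 (0.752 CPM) against 97.8 CPM in clone 2 (35.4% of cells) and 53.8 CPM in clone 3 (21.1%). *Klra3* was at 0 in 9 of the 17 smaller clones and at 109.6 CPM in clone 7, so 16 of the 17 were below clones 2 and 3. Ly49 genes are similar in sequence, and reads can be shared among them.

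The chemokine receptor gene *Ccr8* was at 18.0 CPM in clone 1 and at 63.5 and 63.6 CPM in clones 2 and 3, which were both above all 17 smaller clones. *Spp1*, the gene of the secreted protein osteopontin, was at 126.8 CPM in clone 1 and at 483.4 and 556.3 CPM in clones 2 and 3, which was 3.81-fold (3.56 to 4.09) and 4.39-fold (4.07 to 4.73) higher than in clone 1. *Il3ra*, a subunit of the interleukin-3 receptor, was at 28.6, 70.3 and 60.1 CPM. In the other direction, *Odc1*, the rate-limiting enzyme of polyamine synthesis, was at 693.7 CPM in clone 1, 449.0 in clone 2 and 257.0 in clone 3, below all 17 smaller clones. *Lysmd2* was at 60.8 and 34.5 CPM in clones 1 and 2, and 3.03-fold lower in clone 3 than in clone 1 (2.41 to 3.86). *Fcer1g*, a signaling adaptor of Fc and natural killer receptors, was at 125.6, 48.1 and 57.8 CPM, and *Serpinb9b*, of the family of granzyme-inhibiting serpins, at 260.3, 117.7 and 113.2 CPM.

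Clone 2 stood out by *Cd5* and *Cd6*, which encode related surface receptors that dampen T cell receptor signaling. *Cd5* was at 394.3 CPM in clone 2 (95% interval 381 to 408, 86.4% of cells), 66.1 CPM in clone 1 (34.4%) and 72.9 CPM in clone 3 (39.7%). *Cd6* was at 354.6 CPM (87.7%), 58.2 CPM (32.0%) and 72.7 CPM (40.4%). *Cd5* was thus 5.97-fold above clone 1 (5.44 to 6.56) and 5.41-fold above clone 3 (4.81 to 6.09), and *Cd6* was 6.10-fold (5.53 to 6.74) and 4.88-fold (4.34 to 5.50) above them. The interval of the *Cd5* ratio of clone 3 over clone 1 was 0.957 to 1.27, so these clones were not told apart by it. With every cell thinned to 3800 UMIs, 71.6% of clone 2 cells had a *Cd5* UMI against 21.1% and 23.5%.

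Another transcript of the same stretch had the same order. *Cd5*, *A430093F15Rik* and *Cd6* lie in this order on chromosome 19 (chr19:10718107-10830062, GRCm38.p6) with gaps of 1920 and 3295 bases between the annotated genes. *A430093F15Rik* was at 80.0 CPM in clone 2 and at 13.8 and 15.1 CPM in clones 1 and 3, a ratio of 5.80 (4.74 to 7.17) and 5.29 (4.09 to 6.93). Among the 17 smaller clones *Cd5* ran from 0 to 440.6 CPM and *Cd6* from 36.9 to 444.8 CPM, and the levels went together (Pearson r of log2 levels 0.671 over the 17, 0.681 over all 20, which share 1 library and differ in depth). Clone 4 had 440.6 CPM of *Cd5* and 444.8 of *Cd6*, clone 9 had 380.7 and 404.1, and clone 11 had 387.7 and 381.6.

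**Figure D4:**
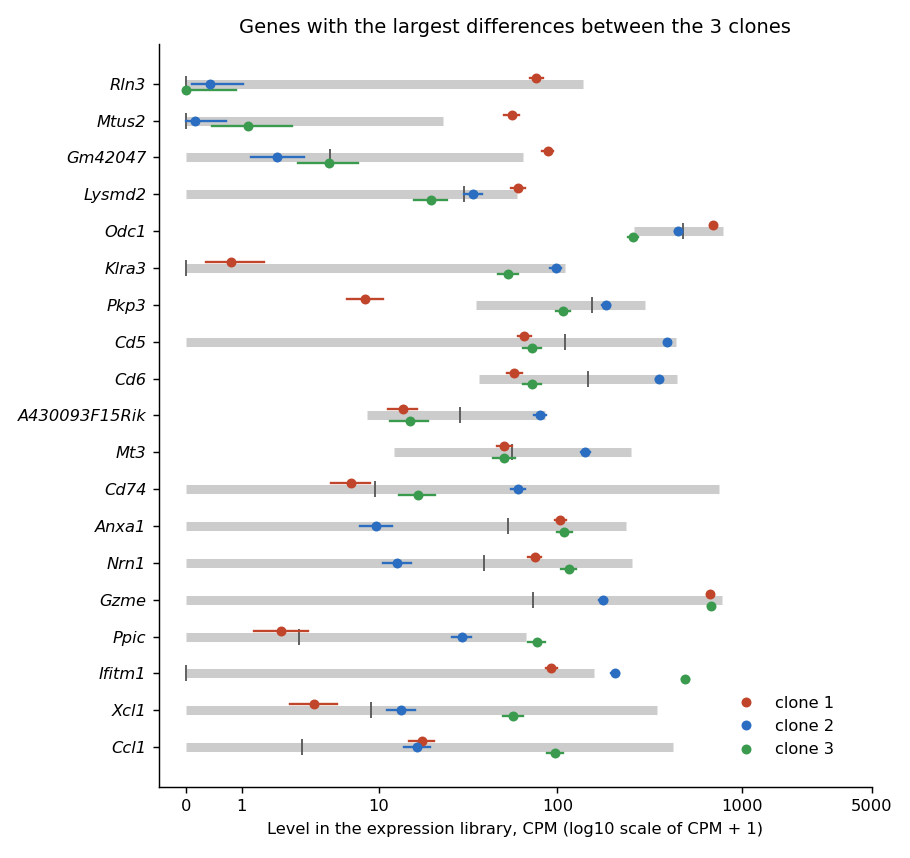
Level in CPM (x axis, log10 scale after adding 1) of the 19 genes with the 5 highest and 5 lowest ratios of each pair, for clone 1 (red), clone 2 (blue) and clone 3 (green), with 95% Poisson intervals; grey bars span the clones ranked 4 to 20 and black ticks mark their median. *Pkp3* in clone 1 (8.27 CPM) lies below the grey bar, *Ifitm1* in clone 3 (493.9 CPM) above it.

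*Mt3*, a metallothionein that binds zinc and copper, was highest in clone 2 of the 3, at 141.6 CPM against 51.3 in clone 1 and 51.0 in clone 3. Clone 15 was higher, at 251.7 CPM. In cells of clones 1, 2 and 3 that lacked a UMI of *Cd2*, *Cd8a* or *Cd8b1*, *Mt3* was at 64.7, 70.0 and 60.8 CPM. The intervals of these levels overlapped. In cells with the β CDR3 of the clone but no α contig it was at 51.4, 175.1 and 53.7 CPM. *Cd74*, the invariant chain of MHC class II, was at 6.77, 60.8 and 16.8 CPM in clones 1, 2 and 3, but 1 cell held 67.4% of the clone 2 UMIs. The same held for *H2-Eb1*, of which 90.2% of the clone 2 UMIs were in 1 cell. Without the cell of each clone with most UMIs of the gene, the log2 ratio of *Cd74* in clone 2 over clone 3 went from 1.80 to 0.67. *Cd74* was found in 8.40% of clone 2 cells, against 3.44% and 7.16% in clones 1 and 3.

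Clone 2 had little of *Anxa1* and *Nrn1*, which clones 1 and 3 both had. *Anxa1*, an annexin with anti-inflammatory roles, was at 9.62 CPM in clone 2 (5.34% of cells) and at 103.7 CPM in clone 1 (38.1%) and 109.0 CPM in clone 3 (39.3%). *Nrn1*, the gene of neuritin, was at 12.8 CPM in clone 2 (6.13% of cells), 75.1 CPM in clone 1 (23.7%) and 115.1 CPM in clone 3 (30.9%). *Anxa1* was 10.8-fold lower in clone 2 than in clone 1 (8.58 to 13.7) and 11.3-fold lower than in clone 3 (8.94 to 14.5), while clones 1 and 3 were within counting error of each other (1.05, 0.937 to 1.18). Low levels were not particular to clone 2: clone 10 had 9.71 CPM of *Anxa1* and of *Nrn1*, clone 20 had 6.94 CPM of *Anxa1* and 0 of *Nrn1*, and clone 15 had 0 of *Anxa1*. In the 84 and 107 cells of clones 1 and 2 that lacked a UMI of *Cd2*, *Cd8a* or *Cd8b1*, *Nrn1* was at 30.7 and 54.8 CPM. These levels rested on 9 and 18 UMIs with overlapping intervals (14.0 to 58.2 and 32.5 to 86.5), so *Nrn1* did not order these cells.

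The interferon-induced gene *Ifi27l2a* was another mark of clone 2. It was at 630.9 CPM in clone 2 (44.1% of cells) against 3059 CPM in clone 1 (96.0%) and 2066 CPM in clone 3 (90.7%), and 16 of the 17 smaller clones were above clone 2. *Ifi27*, at the same place on chromosome 12, was also lowest in clone 2, where it was in 48.1% of cells against 78.2% and 81.2% in clones 1 and 3. The annotated extents of these 2 genes overlap, so their reads may not be separable.

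The interferon response list, which holds *Ifi27l2a*, summed to 21633, 17120 and 18041 CPM, lowest in clone 2. Between clones 2 and 3 the sums differed by less than *Ifi27l2a* alone did, so their order rested on this gene. Of its 43 genes, 35 were compared between clones 1 and 2, 1 was past the threshold (*Ifi27l2a*, against 0.558% of all genes), 32 were above 0, and the median log2 ratio was 0.24 against -0.04 over all genes. Between clones 1 and 3, 0 of 35 were past the threshold and 34 were above 0, with a median of 0.29 against 0.00 over all genes. *Isg15* was at 164.4, 124.0 and 85.7 CPM, and clone 1 was slightly higher over most of the list. The list did not hold *Ifi27* or the interferon-induced *Ifitm1*. The log2 ratio of *Ifi27* was 1.14 for clone 1 over 2 and 0.04 for clone 1 over 3. *Ifitm1* went the other way, at -1.14 and -2.40. Between clones 2 and 3 the median was 0.06 against 0.04 over all genes, and 23 of 32 compared genes were higher in clone 2. The log2 ratio of the summed level of clone 2 over clone 3, -0.08, reached 0.05 under another setting.

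The granzymes, serine proteases that T cells deliver into target cells, did not share 1 order. *Gzmb* was at 4589, 3082 and 2750 CPM in clones 1, 2 and 3, and clone 1 exceeded all 17 smaller clones, whose highest was 3933 CPM. The neighbouring *Gzmc*, *Gzmd*, *Gzme* and *Gzmf* on chromosome 14 were lowest in clone 2. *Gzme* was at 669.9 CPM in clone 1, 176.1 in clone 2 and 677.0 in clone 3, *Gzmd* at 418.5, 140.5 and 463.4 CPM, and *Gzmf* at 1031, 446.2 and 1107 CPM. *Gzmc* was lowest in clone 2 (106.6 CPM) and highest in clone 3 (323.4 CPM), with clone 1 at 189.0 CPM. These transcripts were carried by a part of each clone: *Gzme* was found in 33.7%, 15.5% and 39.7% of cells. The 10 cells with most *Gzme* held 17.5% of its UMIs in clone 1, 34.4% in clone 2 and 25.5% in clone 3.

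*Gzmk*, a granzyme of less differentiated CD8 T cells, was low in all 3 clones, at 86.2, 92.0 and 43.8 CPM against a median of 266.2 CPM in the 17 smaller clones, and 1, 1 and 0 of those 17 were lower. Perforin (*Prf1*) was at 1297, 1288 and 1192 CPM. Of the 19 genes of the cytotoxic granule list, 15 were compared between clones 1 and 2 and 4 were higher in clone 1 by the threshold (*Gzmd*, *Gzme*, *Gzmf* and *Serpinb9b*), with 0 lower. Between clones 1 and 3, 1 of 16 was higher (*Serpinb9b*) and 0 lower, and between clones 2 and 3, 1 of 16 was higher in clone 2 (*Gzmk*) and 4 were lower. *Gzmc* to *Gzmf* are similar in sequence, so reads may be shared among them.

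Of the 3 clones, clone 3 was highest in *Ppic*, *Ifitm1* and the chemokine genes *Xcl1* and *Ccl1*. *Ppic*, a cyclophilin that assists protein folding, was at 76.9 CPM in clone 3 (40.8% of cells), 29.7 CPM in clone 2 (19.2%) and 2.26 CPM in clone 1 (1.45%), and was higher in clone 3 than in each of the 17 smaller clones. *Ifitm1*, an interferon-induced membrane protein that restricts virus entry, was at 493.9, 204.8 and 92.6 CPM in clones 3, 2 and 1, while 10 of the 17 smaller clones had none and the highest was at 157.7 CPM. It was found in 23.2%, 19.2% and 8.33% of the cells, and the 10 highest cells held 29.5% of the clone 3 UMIs.

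*Xcl1*, whose product attracts cross-presenting dendritic cells, and *Ccl1*, a ligand of CCR8, came from few cells. *Xcl1* was at 57.1 CPM in clone 3 against 13.5 and 3.89 CPM in clones 2 and 1, but 6.77% of clone 3 cells had a UMI and 10 cells held 82.9% of them. *Ccl1* was at 97.1 CPM against 16.7 and 17.7 CPM, with 8.32% of clone 3 cells and 81.1% of UMIs in 10 cells. Without the 10 highest cells of each clone the log2 ratio of *Xcl1* in clone 2 over clone 3 went to -0.61, under the threshold, while that of *Ccl1* went from -2.47 to -1.91. Among the smaller clones, *Xcl1* was above clone 3 in clones 4, 5, 6, 11 and 13, at 67.5 to 345.0 CPM, and *Ccl1* in clones 4 and 11, at 109.9 and 421.3 CPM. For *Il2*, all 155 of its UMIs in clone 3 were in 1 cell, and clones 1 and 2 had none.

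The cell cycle genes were lower in clone 1. The S phase list, with genes for DNA synthesis, summed to 1887 CPM in clone 1 (95% interval 1857 to 1917), 2742 in clone 2 (2707 to 2778) and 2263 in clone 3 (2218 to 2308). The G2/M list, with genes for chromosome segregation, summed to 4011 (3967 to 4055), 5175 (5127 to 5224) and 5007 CPM (4940 to 5074). No member was past the threshold in any pair, but all 19 compared S phase genes and all 26 compared G2/M genes were below 0 in clone 1 over clone 2, with medians of -0.51 and -0.44 against -0.04 over all genes. Genes of 1 phase are read in the same cells and do not count as separate observations.

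Cells with many cell cycle transcripts were fewer in clone 1. *Mki67*, a marker of dividing cells, was found in 17.8% of clone 1, 31.0% of clone 2 and 27.7% of clone 3 cells, and in 13.0%, 20.9% and 19.0% after thinning to 3800 UMIs. Cells that gave 1% or more of their UMIs to the G2/M list made up 7.97%, 12.5% and 11.4% of clones 1, 2 and 3. Over the 17 smaller clones the summed G2/M level ran from 1677 to 9502 CPM, so all 3 clones lay inside the range of the smaller ones.

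Genes of exhaustion, costimulation and proximal signaling were mostly within the threshold. Of the 16 inhibitory receptor genes, 11 or 12 were compared in each pair and 0 were past the threshold. In clone 1 over clone 2, 9 of 11 were above 0, with a median of 0.20 against -0.04 over all genes and a highest ratio of 0.96. *Pdcd1* was at 950.7, 859.2 and 874.5 CPM and *Lag3* at 921.2, 932.3 and 1001 CPM, while *Tox*, a transcription factor of exhausted T cells, was at 77.5, 120.2 and 132.8 CPM, lowest in clone 1. All 20 genes of the T cell receptor signaling list were compared, and *Cd5* and *Cd6* were the 2 past the threshold, in the pairs with clone 2. Between clones 1 and 3 the log2 ratios of all 20 ran from -0.32 to 0.32. Of the costimulatory receptors and the effector and exhaustion transcription factors, 0 were past the threshold in any pair.

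**Figure D5:**
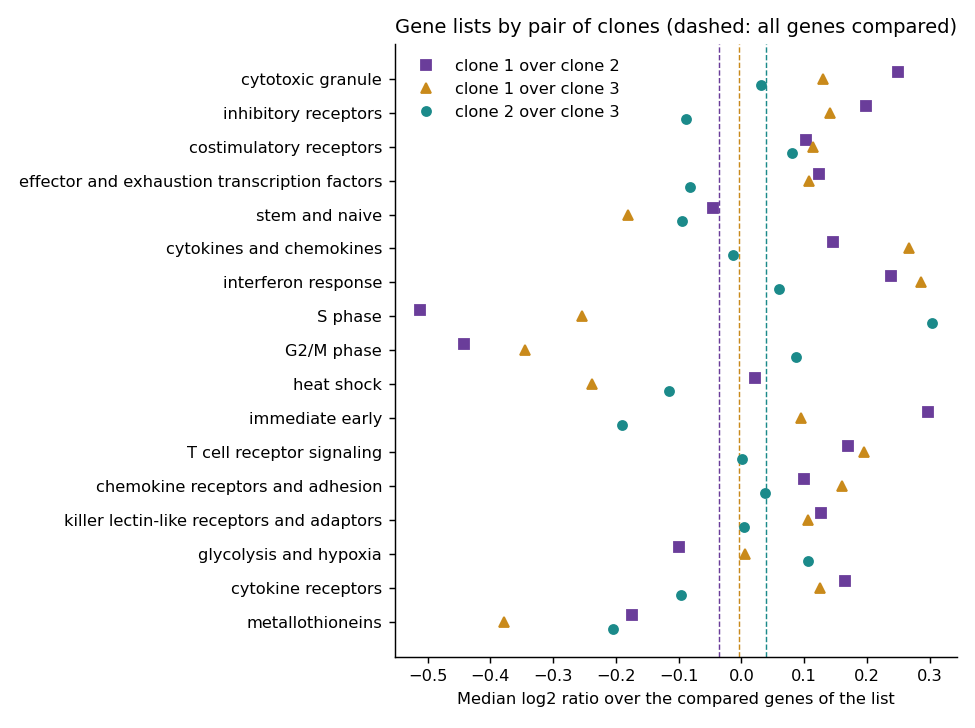
Median log2 ratio over the compared genes (x axis, 1 CPM added) of the 17 lists of T cell genes, without the sex-linked list and the marker lists of other cells, for clone 1 over 2 (purple squares), clone 1 over 3 (orange triangles) and clone 2 over 3 (teal circles); dashed lines give the median over all genes compared in that pair. Of the lists drawn, the S and G2/M lists lie lowest for clone 1 over clone 2, at -0.51 and -0.44, and the immediate early list highest, at 0.30.

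Immediate early genes, switched on within minutes of receptor signaling but also by tissue handling, were higher in clone 1 than in clone 2 in 14 of 14 compared genes, with a median of 0.30 and 0 past the threshold. Between clones 1 and 3, 13 of 16 were higher in clone 1 with 0 past the threshold, and between clones 2 and 3, 15 of 16 were lower in clone 2 with 1 past it. *Egr1* was at 326.0, 194.9 and 203.1 CPM. The 4 metallothionein genes summed to 1005, 1206 and 1296 CPM, with *Mt3* past the threshold in both pairs with clone 2. *Ccl5*, the most abundant chemokine transcript, was at 9447, 6442 and 5720 CPM. *Areg*, the growth factor amphiregulin, was at 112.9, 217.9 and 185.2 CPM, and clones 2 and 3 exceeded all 17 smaller clones, whose median was 5.10 CPM.

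In several of the remaining lists the share past the threshold was above that over all genes, on few compared genes. Of the cytokines and chemokines, 1 of 11 compared genes was lower in clone 1 than in clone 2, 3 of 13 lower than in clone 3, and 2 of 13 lower in clone 2 than in clone 3, with 0 higher. Of the chemokine receptors and adhesion genes, 1 of 12 was lower in clone 1 than in clone 2 and 2 of 12 lower than in clone 3. Of the killer lectin-like receptors and their adaptors, 2 of 7 were higher and 1 of 7 lower in clone 1 than in clone 2, 1 of 7 was higher and 1 lower in clone 1 than in clone 3, and 0 of 6 were past the threshold between clones 2 and 3. Of the heat shock, glycolysis and cytokine receptor genes, 0 were past the threshold in any pair, and heat shock genes were lower in clone 1 than in clone 3 in 10 of 11, with a median of -0.24 against 0.00 over all genes. Of 4 or 5 stem and naive genes compared, 1 was lower in clone 1 than in clone 3 and 0 others were past the threshold.

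The stem and naive list summed to 1081, 1030 and 992 CPM in clones 1, 2 and 3, against 1085 CPM in clones 4 to 20 together and 1356 CPM in the 1660 other cells with both chains. *Tcf7*, which encodes the transcription factor TCF1 of stem-like T cells, was at 3.01, 4.11 and 0.932 CPM with a UMI in 0.906%, 1.48% and 0.387% of cells, against 39.3 CPM in the other cells. *Ccr7*, a lymph node homing receptor, was at 12.2, 33.0 and 65.9 CPM, in 2.63%, 6.52% and 8.70% of cells. The 10 cells of clone 3 with most *Ccr7* held 65.4% of its UMIs.

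The Y-linked genes gave an unequal result. *Ddx3y* was at 33.6, 34.1 and 34.5 CPM and *Eif2s3y* at 97.4, 85.3 and 81.5 CPM, and *Xist* had 0 UMIs in each clone, and so all 3 clones had Y-linked transcripts. *Uty*, next to *Ddx3y* on the Y chromosome, had 119 UMIs in clone 1 (14.9 CPM, 9.87% of cells), 1 UMI in clone 2 and 3 UMIs in clone 3. The ratio of clone 1 over clone 2 was 127 (22.4 to 5062) and over clone 3 was 21.3 (7.13 to 105). *Uty* was at 0 in 4 of the 17 smaller clones and between 1.98 and 31.3 CPM in the others, and it was under the 50 CPM asked of the genes compared. In cells with the β CDR3 of clones 1, 2 and 3 but no α contig it had 3, 1 and 0 UMIs. It had 5, 1 and 0 in cells of the clones that lacked a UMI of *Cd2*, *Cd8a* or *Cd8b1*. These were too few to order the clones.

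Cells with the β CDR3 of a clone but no α contig were not used in the choice and gave a further look in the same library. There were 69, 55 and 53 such cells in the matrix with UMIs of the 3 genes, with a median of 4117, 2239 and 1138 UMIs. *Trbv12-1*, a segment of clone 1, was at 98.4 CPM in those of clone 3 against 18.2 CPM in clone 3 itself. Of the 10 named genes of each pair, 10, 9 and 8 had the same sign as in the clones. These numbers are for clone 1 over 2, 1 over 3 and 2 over 3. By the log2 ratio alone, 10, 7 and 6 were also past the threshold. The minimum of UMIs asked of the genes compared was not applied to these counts, so some of them rested on few UMIs. In clone 1 over 2, *Cd74* was counted on 0 and 1 UMIs and *Klra3* on 1 and 19, while *Cd6* had 21 and 62. *Pkp3* was at 13.7, 223.4 and 62.6 CPM, *Klra3* at 3.43, 114.7 and 35.8 CPM and *Cd6* at 72.0, 374.4 and 71.5 CPM in the β-only cells of clones 1, 2 and 3. *Cd5* was at 75.4, 223.4 and 116.3 CPM, which put clone 2 over clone 3 under the threshold (log2 ratio 0.94 against 2.42 in the clones). *Xcl1* was at 13.7, 18.1 and 8.94 CPM on 4, 3 and 1 UMIs, too few to order the clones. *Ccl1* was at 116.5, 0 and 89.4 CPM on 34, 0 and 10 UMIs. Its intervals in clones 1 and 3 overlapped (80.7 to 163 and 42.9 to 164), with a log2 ratio of 0.38 against -2.39 in the clones. *Anxa1* was at 92.5, 6.04 and 214.6 CPM, and *Ifi27l2a* at 4171, 1075 and 1851 CPM. *Gzme* was at 452.4, 368.3 and 670.7 CPM, *Gzmf* at 1114, 857.4 and 2093 CPM and *Gzmd* at 394.1, 458.9 and 652.8 CPM. For each gene the intervals of clones 1 and 2 overlapped. In the same gene order, the log2 ratios of clone 1 over 2 were 0.30, 0.38 and -0.22, against 1.92, 1.21 and 1.57 in the clones. In clone 2 over 3 they were -0.86, -1.29 and -0.51, against -1.94, -1.31 and -1.71. Only *Gzmf* in clone 2 over 3 stayed past the threshold. The second receptor segments were there too, with *Trbv15* at 377.0 CPM in the β-only cells of clone 1 and 30.2 CPM in those of clone 2. In the β-only cells of clone 1, *Trav12-2* was at 188.5 and *Trav12-3* at 178.2 CPM, against 173.0 and 860.3 CPM in clone 1 itself.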

How the data were processed

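Per the labels and the study's methods, the authors mapped single-cell 5′ gene expression and TCR libraries with Cell Ranger 6.0.0 against the mouse reference of build mm10. The deposited expression matrix holds UMI counts per gene and barcode, not normalized, and the deposited contig table holds the chain calls with UMI and read counts per contig. The control tumor matrix had 11369 barcodes, 66786816 UMIs and 32285 genes. The contig table had 11180 contigs in 5947 barcodes, of which 4992 had both chains, 4980 of those were in the matrix and 4293 had UMIs of *Cd2*, *Cd8a* and *Cd8b1*. Of the members, 2629 of 2633 also met the study's filters on genes (200 to 6000), mitochondrial UMIs (at most 3%) and large genes (at most 20%), which were tried as an alternative. No doublet caller was run, and no cell was removed as a doublet.

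UMIs were summed over the cells of a clone and divided by the clone's total (CPM). Intervals are exact Poisson for levels, Clopper-Pearson for shares and conditional binomial for ratios, and a count of 0 was bounded at 3 UMIs. Shares were also computed with each cell thinned to 3800 UMIs, which kept 1004, 913 and 468 cells. Gene names are those of the files, and positions came from RefSeq on GRCm38.p6, matched by symbol. The named genes are the 5 highest and 5 lowest log2 ratios of each pair among the genes compared, without mitochondrial and ribosomal protein genes, and members of 24 gene lists with 430 of 433 symbols in the files. *Trav*, *Traj*, *Trbv*, *Trgv* and constant segments beyond those of the clones were chosen after their values were seen, and so were *Ifi27*, *Il3ra* and the β-only cells. The members and the lists were chosen with earlier results of these data known. The ratios and their intervals were tried on simulated Poisson counts, which cannot test them where a few cells hold most UMIs of a gene. Python 3.11.15, numpy 2.4.6, scipy 1.17.1 and pandas 2.3.3 were used. The lymph node and receptor-deficient libraries were used only to count shared barcodes and chains.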

Additional observations from a re-analysis of the deposited data

How the results depend on the processing

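Each of 13 other settings was applied to the expression comparison and 5 to the choice of cells. The share of clone 1 among cells with both chains went from 25.7% to 23.9% without the filter on *Cd2*, *Cd8a* and *Cd8b1*, and the shares of clones 2 and 3 stayed within their intervals. The number of genes past the threshold was 32, 22 and 21 for clone 1 over 2, 1 over 3 and 2 over 3. It became 70, 55 and 40 with a minimum of 20 CPM, 10, 4 and 9 with 200 CPM, 154, 125 and 84 with no minimum, and 98, 70 and 44 at a threshold of 0.58, since these settings change which genes can pass. Under the others the number stayed within 1.5 times, but directions and genes changed more. Without the 10 cells with most UMIs of the gene, clone 1 over 3 went from 8 higher and 14 lower to 15 higher and 8 lower. Among cells with a low cell cycle share, 21 of the 32 genes of clone 1 over 2 and 16 of the 21 of clone 2 over 3 stayed past it. Of 30 ratios of named genes, 27 stayed past the threshold of 1 under all 13 settings. Several of these settings could not change a ratio. Another minimum or threshold only changed which genes could pass, and leaving out barcodes with extra chains removed no member. The named genes were also picked for their extreme ratios. *Cd74* in clone 2 over clone 3 turned from 1.80 to -0.93 among cells with a low cell cycle share, and the cause was not tested. The other 2 were *Cd74* in clone 1 over 2 and *Xcl1* in clone 2 over 3. Of 663 log2 ratios of summed list levels under these settings, 163 left their interval. For clone 1 over 2, the inhibitory receptors went from 0.149 down to 0.013. T cell receptor signaling went from 0.103 to 0.005 and the effector and exhaustion transcription factors from 0.141 to 0.023. The interferon response stayed between 0.231 and 0.341. Leaving out the 1 or 10 cells with most UMIs of a gene was added after seeing the data. No paired analysis was possible because each group has 1 sample. With 1 library of 3 pooled mice, the spread between animals is unknown, and levels under about 1 CPM in the 3 clones rest on fewer than 10 UMIs. In groups with fewer UMIs, such as the smaller clones and the β-only cells, higher levels do so too. The 8.94 CPM of *Xcl1* in the β-only cells of clone 3 was 1 UMI.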

Other observations

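Cells that had both chains of a clone but lacked a UMI of *Cd2*, *Cd8a* or *Cd8b1* numbered 84, 107 and 79 for clones 1, 2 and 3, with a median of 3240, 2116 and 1147 UMIs. Of the 10 named genes of each pair, 8, 10 and 9 had the same sign in them as in the clones for clone 1 over 2, 1 over 3 and 2 over 3. *Mt3* in clone 2 over 3 kept its sign at a log2 ratio of only 0.20, against 1.46 in the clones.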
